A study of Mus musculus with 4 samples.

Results

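The genes described here encode glutamate receptors and the auxiliary subunits that travel with them. They are 34 genes chosen by family membership and found by gene symbol, among 25044 entries listed for each library: 4 AMPA, 5 kainate, 7 NMDA and 1 delta receptor subunit, 7 metabotropic receptors, 6 transmembrane AMPA receptor regulatory proteins (TARPs), 2 cornichons and 2 Neto proteins. RNA sequencing was done on tissue of the parasubthalamic nucleus, a small glutamatergic cell group beside the subthalamic nucleus, from naive C57BL/6 mice. The 4 libraries, replicates 1 to 4, form 1 group; all share the strain, none was stressed, and the labels used here state neither age nor how many animals a library pools. Genes are therefore compared with each other inside the same libraries, and libraries are compared only by description. Levels are read as FPKM, fragments scaled by transcript length and library size, since neither labels nor headers name the unit.

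Glutamate opens AMPA, kainate and NMDA receptors, which are cation channels built from 4 subunits. AMPA receptors carry most fast excitation, kainate receptors add slower currents and presynaptic control, and NMDA receptors pass calcium when glutamate coincides with depolarization. Metabotropic receptors signal through G proteins, and auxiliary subunits set the trafficking and gating of the channels. In the posterior lateral hypothalamus and subthalamic region these receptors receive glutamatergic input onto local neurons, and several are also made by glia.

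The coding stretches around the channel pore are shown first, because the subunits compared below differ or coincide at the site that sets calcium permeability or block by magnesium. Each is a stretch of 60 bases from GENCODE M21 transcripts on GRCm38, read 5′ to 3′ on the coding strand, and the capitals mark the codon of the Q/R site in AMPA and kainate subunits and of the N site in NMDA subunits. The Gria2 codon is recoded in RNA by the editing enzyme encoded by Adarb1. The genome shows the unedited form.
Gria1: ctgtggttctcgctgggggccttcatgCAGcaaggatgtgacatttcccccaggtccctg
Gria2: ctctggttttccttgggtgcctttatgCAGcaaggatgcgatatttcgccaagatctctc
Gria3: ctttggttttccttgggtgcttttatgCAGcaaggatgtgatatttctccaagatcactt
Gria4: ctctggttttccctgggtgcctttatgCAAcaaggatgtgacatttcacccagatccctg
Grik1: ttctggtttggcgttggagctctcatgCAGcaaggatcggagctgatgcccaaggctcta
Grik2: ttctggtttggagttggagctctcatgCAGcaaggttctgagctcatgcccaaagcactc
Grik5: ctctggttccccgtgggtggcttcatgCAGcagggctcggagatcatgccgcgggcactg
Grin1: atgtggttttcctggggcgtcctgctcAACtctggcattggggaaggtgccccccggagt
Grin2a: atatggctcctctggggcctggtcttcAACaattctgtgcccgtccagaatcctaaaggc
Grin2c: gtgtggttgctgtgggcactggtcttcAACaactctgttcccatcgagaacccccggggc
Grin2d: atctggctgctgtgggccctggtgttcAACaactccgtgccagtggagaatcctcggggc
The marked codon is CAG in Gria1, Gria2 and Gria3, CAA in Gria4, CAG in the kainate subunits shown and AAC in the NMDA subunits shown. It lies in coding exon sequence in each case: at chr11:57243094-57243096 in exon 11 of 16 for Gria1 on the plus strand, at chr3:80706911-80706913 in exon 11 of 16 for Gria2 on the minus strand, at chr10:49244329-49244331 in exon 12 of 16 for Grik2 on the minus strand, and at chr2:25297386-25297388 in exon 14 of 21 for Grin1 on the minus strand. Gene-level values do not separate edited from unedited transcripts, nor splice forms.

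Of the 34 genes, 32 were at 1 FPKM or more in all 4 libraries, as were 12415 entries of the whole series. A mean of 0.1 FPKM or more was required for testing, which 33 genes met and Grm6 did not. Among the 17630 genes that met it, the 33 had a median percentile of 65.2, with Grin3b lowest at 19.4 and Cacng7 highest at 95.6. Their median mean level was 10.1 FPKM, against 4.90 FPKM over all genes tested. Cacng7, Cnih2, Grin1 and Gria1 lay at a percentile of 90 or more.

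**Figure D1:**
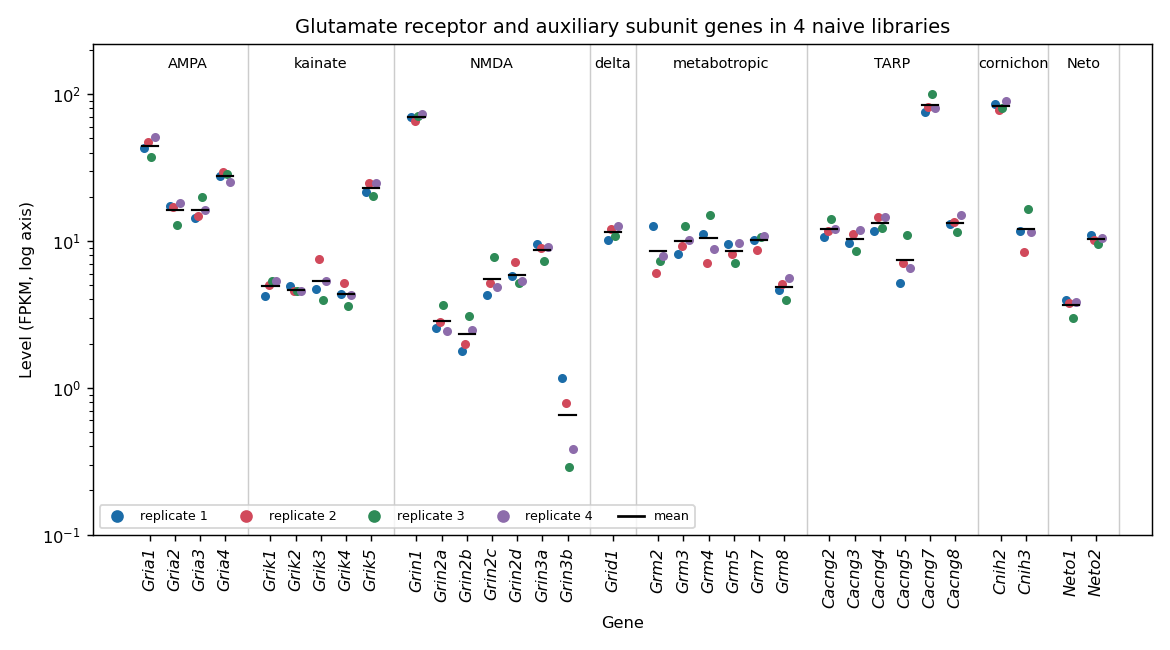
Level of each gene in FPKM on a log axis, by family, with 1 point for each of 4 libraries and a line at the mean; Grm6, listed at 0, is not drawn. Cacng7, Cnih2 and Grin1 sit highest, with means of 84.7, 83.5 and 69.9 FPKM, and Grin3b lowest at 0.654 FPKM.

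Library totals lay between 428612 and 442836 FPKM, and 12896 to 13126 entries per library were at 1 FPKM or more. The 4 neuron markers summed to 1558 to 1769 FPKM and the 5 astrocyte markers to 799 to 867 FPKM. All 8 parasubthalamic nucleus markers were above 0 in every library, as were all other listed markers except Hoxb8, Hoxa7 and Hoxc6. The sums of the parasubthalamic markers ranged between 318 FPKM in replicate 3 and 512 FPKM in replicate 1. The 6 midbrain dopamine markers summed to 416, 770, 438 and 400 FPKM in replicates 1 to 4. They exceeded the parasubthalamic sum in replicates 2 and 3. Tissue content did differ. The 6 thalamus markers summed to 324 FPKM in replicate 3, against 27.9 to 59.1 FPKM elsewhere, and the 6 medial hypothalamus markers to 183 FPKM in replicate 2, against 10.3 to 33.0 FPKM elsewhere. The 4 lateral hypothalamus markers summed to 66.6 FPKM in replicate 3, against 271 to 526 FPKM elsewhere, with Pmch at 54.9 FPKM against 257 to 429 FPKM. These 4 did not move together: 2 were lowest in replicate 3, Pmch among them, and 2 were highest there. Hoxb8, Hoxa7 and Hoxc6, markers of spinal cord and caudal hindbrain, were at 4.81, 3.80 and 3.06 FPKM in replicate 1 and listed at 0 in the other 3 libraries. In bulk tissue, fewer cells of a type and less RNA per cell cannot be told apart.

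Among AMPA subunits, which form the pore of the main fast excitatory receptor, Gria1 and Gria4 stood above Gria2, the subunit whose edited form blocks calcium entry. Gria1 (ENSMUSG00000020524, chromosome 11, 57011387 to 57330244, GRCm38) lay at 43.3, 47.3, 37.4 and 50.8 FPKM in replicates 1 to 4. Gria4, a subunit with fast kinetics, lay at 27.6, 29.8, 28.6 and 25.1 FPKM. Gria3, an X-linked subunit, lay at 14.4, 14.8, 20.1 and 16.2 FPKM. Gria2 (ENSMUSG00000033981, chromosome 3, 80681450 to 80802835) lay at 17.5, 17.0, 12.9 and 18.2 FPKM. The ranges of Gria1 and Gria4 did not overlap with each other or with those of Gria3 and Gria2, while the last pair overlapped. Replicate 3 was the library with the lowest Gria1 and Gria2 and the highest Gria3.

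Within libraries Gria1 was 2.73-fold higher than Gria2 (log2 difference 1.45, SE 0.12, limma adjusted p = 1.34e-05) and Gria4 was 1.70-fold higher (0.77, SE 0.15, limma adjusted p = 0.00183), each in 4 of 4 libraries. Gria3 did not pass at 0.00 (SE 0.18, limma adjusted p = 1.00), above Gria2 in 1 of 4 libraries. Of these 3 genes 2 were thus called higher and 0 lower, at limma unadjusted p under 0.05 too, where 19.5% and 70.5% of all 17629 genes were, with a median difference of 0.77 against -1.72 over all genes. Without replicate 3, Gria3 passed as lower at -0.21. The longest annotated Gria2 transcript has 10.4 kb, against 5.44 kb for Gria4 and 5.55 kb for Gria1. On values multiplied back by that length Gria4 did not pass at -0.16, Gria3 passed as lower at -0.99 and Gria1 was at 0.55. As shares of the summed AMPA level, Gria1 took 42.4% ± 3.46 (SD, n = 4), Gria4 26.5% ± 2.62, Gria3 15.6% ± 3.13 and Gria2 15.5% ± 1.76. Without length correction the order changed, with Gria1 at 37.8% ± 2.65, Gria2 at 25.9% ± 2.56, Gria4 at 23.2% ± 2.55 and Gria3 at 13.1% ± 2.85.

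**Figure D2:**
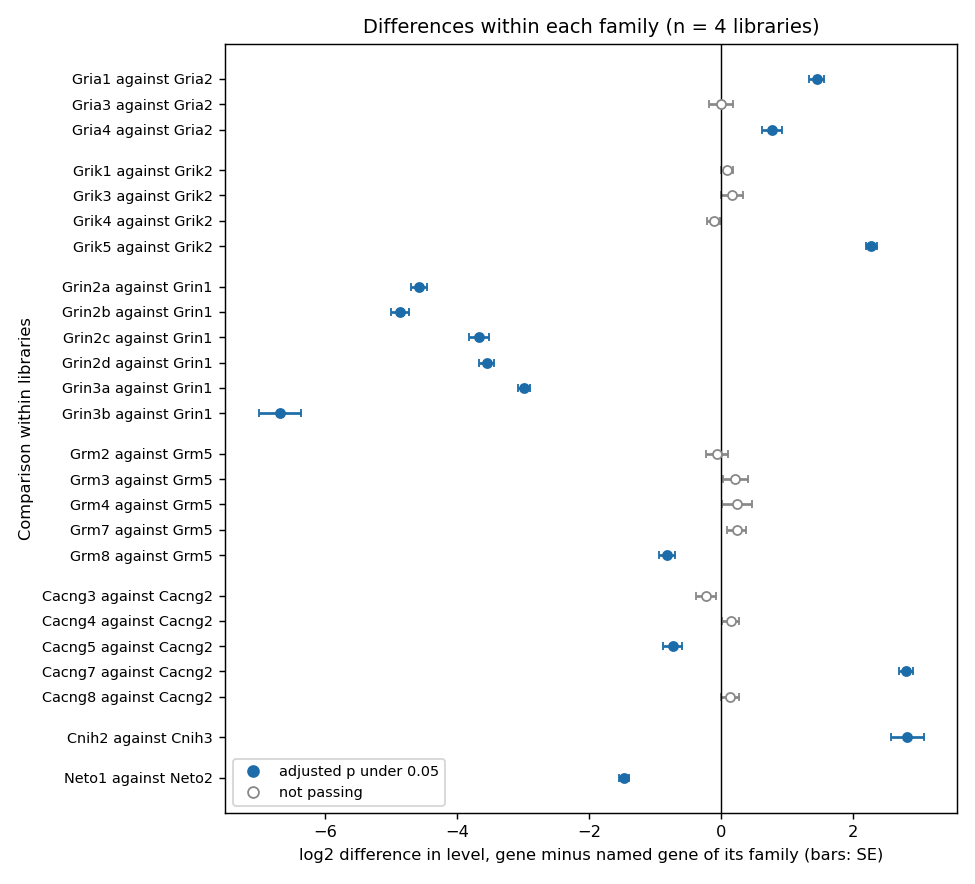
log2 difference in level of each gene minus the named gene of its family, measured within libraries (n = 4), with bars of 1 SE; filled points have an adjusted p under 0.05. The NMDA subunits lie between -6.69 and -2.99, and Grik5, Cacng7 and Cnih2 lie at 2.28, 2.80 and 2.82.

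Kainate receptors join low-affinity subunits, which can form channels alone, with the high-affinity subunits Grik4 and Grik5, which need a low-affinity partner. Grik5 was the most abundant, at 21.7, 25.0, 20.4 and 24.9 FPKM in replicates 1 to 4. The other subunits lay close together. Grik3 was at 4.68, 7.58, 3.95 and 5.31 FPKM, with replicate 2 highest. Grik1, also expressed in interneurons of other regions, ranged from 4.21 to 5.35 FPKM and Grik4 from 3.58 to 5.15 FPKM. Grik2, the most widely studied low-affinity subunit, was at 4.91, 4.59, 4.58 and 4.53 FPKM, with replicate 1 above the rest. Grik5 did not overlap with any other kainate subunit, and the remaining ranges overlapped.

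Against Grik2, Grik5 was 4.84-fold higher in 4 of 4 libraries (log2 difference 2.28, SE 0.09, limma adjusted p = 7.79e-06). Of 4 genes tested 1 was higher and 0 were lower, at limma unadjusted p under 0.05 too, where 47.4% and 45.3% of all genes were, and the median difference was 0.13 against 0.06 over all genes. Grik3 was at 0.17 (SE 0.17), Grik1 at 0.09 (SE 0.10) and Grik4 at -0.11 (SE 0.10), and none of these passed. Grik1 passed as higher at 0.19 without replicate 1, and as lower at -1.27 without length correction, where Grik4 passed as lower at -0.79 and Grik5 remained higher at 1.08. Grik5 made up 54.3% ± 1.38 (SD, n = 4) of the summed kainate level, and 40.8% ± 1.64 without length correction. Grik4 and Grik5 together were 1.82 ± 0.0939 times the sum of Grik1, Grik2 and Grik3, and 1.08 ± 0.0559 times without length correction.

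NMDA receptors pair the obligatory subunit Grin1 with Grin2 subunits, which set kinetics and magnesium block, or with Grin3 subunits, which lower calcium entry. Grin3a was at 9.55, 8.96, 7.36 and 9.05 FPKM in replicates 1 to 4. Grin2d, a slow subunit with weak magnesium block, was at 5.81, 7.14, 5.21 and 5.36 FPKM. Grin2c, found in astrocytes and thalamus as well as cerebellar granule cells, was at 4.30, 5.20, 7.81 and 4.83 FPKM. Replicate 3 held the most Grin2c and the least Grin2d. Grin2a, the main mature forebrain subunit, was at 2.54, 2.80, 3.66 and 2.45 FPKM. Grin2b, the main subunit of early development, was at 1.77, 1.99, 3.09 and 2.48 FPKM. Both were highest in replicate 3, and their ranges overlapped. Grin3b, known from motor neurons, was at 1.16, 0.782, 0.289 and 0.381 FPKM. Grin1 (ENSMUSG00000026959, chromosome 2, 25291181 to 25319187) was at 70.4, 65.3, 70.6 and 73.2 FPKM, above every other NMDA subunit in each library.

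All 6 other NMDA subunits were lower than Grin1 in 4 of 4 libraries, by 7.96-fold for Grin3a (log2 difference -2.99, SE 0.09, limma adjusted p = 8.66e-07), 11.8-fold for Grin2d, 12.7-fold for Grin2c, 23.9-fold for Grin2a, 29.3-fold for Grin2b and 103-fold for Grin3b (-6.69, SE 0.32, limma adjusted p = 5.03e-06). Since 93.6% of all genes were lower than Grin1 and 4.59% higher, with a median of -3.82 against -4.12 for the 6 subunits, the count is near that of genes in general. The level of Grin1 was 4.27 ± 0.680 times the summed Grin2 level (SD, n = 4) and 2.70 ± 0.242 times that of all other NMDA subunits together. Without length correction these ratios were 1.94 ± 0.317 and 1.34 ± 0.125. Within the Grin2 sum, Grin2d took 35.9% ± 6.92, Grin2c 32.9% ± 4.49, Grin2a 17.2% ± 1.09 and Grin2b 14.0% ± 2.38. Grin2d stood above Grin2c in 3 of 4 libraries, and Grin2a above Grin2b in 3 of 4.

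That order rests on the length correction. The longest annotated transcripts of Grin2b and Grin2a have 24.1 and 14.6 kb, against 5.43 kb for Grin2d and 4.89 kb for Grin2c. Multiplied back by these lengths, Grin2b took 35.5% ± 4.41 of the Grin2 sum, Grin2a 26.6% ± 1.72, Grin2d 20.8% ± 4.82 and Grin2c 17.0% ± 1.79. Grin2b was then at -2.44 and Grin2a at -2.85 against Grin1. Grin2d overlaps Kdelr1 by 5607 bases and Grin3b overlaps Tmem259 by 2243 bases, both on the opposite strand, at 34.6 and 49.6 FPKM. Grin2b is overlapped on the opposite strand by Gm14329 over 11442 bases and by Gm14330 over 9288 bases, and Grin1 over 7706 bases by the antisense Grin1os. No level is listed for Gm14329, Gm14330 or Grin1os. Overlaps were measured over whole gene spans, introns included, so the bases shared by exons are not known. Whether counting used strand is not stated in the labels, so reads from these partners cannot be told apart, and these values are uncertain.

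**Figure D3:**
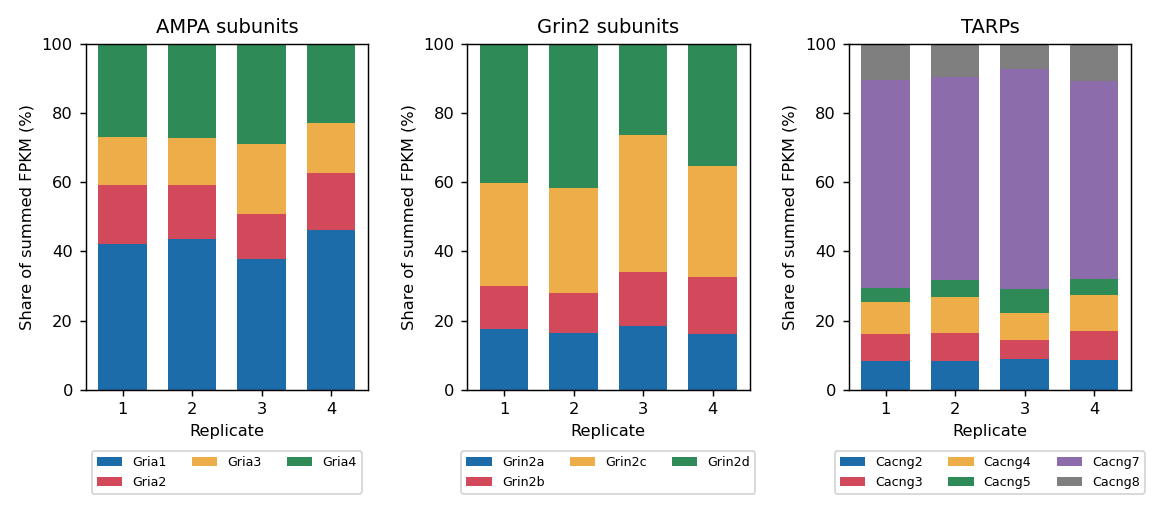
Share of summed FPKM in percent for AMPA subunits, Grin2 subunits and TARPs, with 1 bar per library. Cacng7 fills 57.3% to 63.5% of the TARP bar, and in replicate 3 Grin2c takes 39.5% of the Grin2 bar and Gria3 20.3% of the AMPA bar.

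Grid1 encodes a delta receptor subunit that binds cerebellins across the synapse. It was at 10.2, 12.1, 10.8 and 12.8 FPKM in replicates 1 to 4, a mean of 11.5 ± 1.19 (SD, n = 4). Its SD of log2 levels, 0.15, was larger than that of 44.0% of tested genes.

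Of the metabotropic receptors, Grm8 was lower than Grm5 and Grm6 was listed at 0, while Grm2, Grm3, Grm4 and Grm7 overlapped with Grm5. Group II receptors, Grm2 and Grm3, and group III receptors, Grm4, Grm6, Grm7 and Grm8, inhibit adenylyl cyclase, while Grm5 of group I activates phospholipase C. Grm4, a presynaptic receptor abundant in cerebellar granule cells, was at 11.1, 7.04, 15.0 and 8.86 FPKM in replicates 1 to 4. Grm7, a presynaptic receptor of low glutamate affinity, was at 10.2, 8.66, 10.7 and 10.9 FPKM. Replicate 2 was lowest for both genes. Grm3, which astrocytes also express, was at 8.14, 9.29, 12.6 and 10.2 FPKM. Grm2, a presynaptic autoreceptor, was at 12.7, 6.01, 7.33 and 7.94 FPKM. Grm3 was highest in replicate 3 and Grm2 in replicate 1. Grm8 was at 4.64, 5.06, 3.97 and 5.64 FPKM, and Grm6, the receptor of retinal ON bipolar cells, was listed at 0 in all 4 libraries. Grm5 (ENSMUSG00000049583, chromosome 7, 87584168 to 88134907) was at 9.53, 8.13, 7.07 and 9.72 FPKM, inside the ranges of Grm2 and Grm4.

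Against Grm5 only Grm8 passed among the 5 genes tested, 1.77-fold lower in 4 of 4 libraries (log2 difference -0.82, SE 0.13, limma adjusted p = 0.000548). Over all genes 56.0% were lower than Grm5 and 32.7% higher. Grm4 was at 0.24 (SE 0.23), Grm7 at 0.23 (SE 0.14), Grm3 at 0.21 (SE 0.19) and Grm2 at -0.06 (SE 0.17), and the median of the 5 was 0.21 against -0.81 over all genes. Grm7 was above Grm5 in 4 of 4 libraries and did not pass. Without length correction all 5 passed as lower, with Grm3 at -1.18, Grm2 at -0.84, Grm7 at -0.70 and Grm4 at -0.56. The share over all genes was not taken on that scale. Group II took 35.2% ± 1.28 (SD, n = 4) of the summed metabotropic level and group III 48.3% ± 2.80. These shares were 27.7% ± 1.97 and 44.9% ± 3.91 without length correction.

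TARPs bind AMPA receptors, bring them to the synapse and slow their closing. Their last coding bases are shown because type I TARPs (Cacng2, Cacng3, Cacng4 and Cacng8) end in a motif that binds synaptic scaffolds of the PSD-95 group, which the type II TARPs Cacng5 and Cacng7 end without. Capitals mark the last 4 codons before the stop, in a stretch of 36 bases of GRCm38.
Cacng2: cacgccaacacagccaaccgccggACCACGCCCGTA
Cacng3: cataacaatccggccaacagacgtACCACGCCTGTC
Cacng4: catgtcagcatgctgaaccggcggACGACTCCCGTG
Cacng5: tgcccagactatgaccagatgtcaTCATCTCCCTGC
Cacng7: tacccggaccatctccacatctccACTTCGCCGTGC
The stretch of Cacng7 lies at chr7:3366910-3366945 on the plus strand in exon 6 of 6, and that of Cacng2 at chr15:77995152-77995187 on the minus strand in exon 4 of 4. Over the 36 bases Cacng5 and Cacng7 differ at 12 positions, Cacng2 and Cacng3 at 11, and Cacng2 and Cacng7 at 21.

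Cacng7 (ENSMUSG00000069806, chromosome 7, 3332955 to 3368221) was at 76.0, 81.6, 100.4 and 80.7 FPKM in replicates 1 to 4. Its mean of 84.7 FPKM was the highest of the 34 genes over all 4 libraries, but Cnih2 was above it in replicates 1 and 4, and without replicate 3 the Cacng7 mean level was 79.5 FPKM and the Cnih2 mean level 84.4 FPKM. Without length correction Grin1 and Gria1 also exceeded it. Cacng4 was at 11.7, 14.6, 12.4 and 14.7 FPKM and Cacng8, the TARP known from hippocampus, at 13.1, 13.4, 11.6 and 15.0 FPKM. Both had replicate 4 highest. Cacng3, a cortical TARP, was at 9.76, 11.1, 8.59 and 11.9 FPKM and Cacng5 at 5.14, 7.04, 11.1 and 6.58 FPKM. Cacng2 (stargazin, ENSMUSG00000019146, chromosome 15, 77991748 to 78120028) was at 10.6, 11.6, 14.1 and 12.03 FPKM. Cacng7, Cacng5 and Cacng2 were highest in replicate 3, where Cacng3 and Cacng8 were lowest.

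Against Cacng2, Cacng7 was 6.96-fold higher (log2 difference 2.80, SE 0.10, limma adjusted p = 6.33e-07) and Cacng5 1.67-fold lower (-0.74, SE 0.14, limma adjusted p = 0.00222), each in 4 of 4 libraries. Of the 5 genes tested, 1 was higher and 1 lower, where 25.7% and 64.1% of all genes were. Cacng4 at 0.14 (SE 0.13), Cacng8 at 0.14 (SE 0.14) and Cacng3 at -0.23 (SE 0.15) did not pass. Without replicate 3, Cacng4 and Cacng8 passed as higher, at 0.25 and 0.27. Without length correction both passed as lower, at -0.51 and -1.40, Cacng3 passed as lower at -1.21, and Cacng7 remained higher at 1.49. Cacng7 made up 59.9% ± 2.70 (SD, n = 4) of the TARP sum, and 49.0% ± 2.19 without length correction. Cacng8 is overlapped over 9331 bases of its gene span by the antisense Gm44151, which has no listed level. This leaves the Cacng8 value uncertain in the way described for Grin1. The type II pair together was 1.89 ± 0.342 times the sum of the 4 type I genes, and 1.29 ± 0.199 times without length correction.

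Cornichons are auxiliary subunits that aid export of AMPA receptors and slow their kinetics. Cnih2 (ENSMUSG00000024873, chromosome 19, 5092868 to 5098521) was at 85.3, 77.9, 80.9 and 89.8 FPKM in replicates 1 to 4, against 11.8, 8.36, 16.4 and 11.5 FPKM for Cnih3. The ranges did not overlap, and Cnih3 varied more, with replicate 3 highest and replicate 2 lowest. Cnih2 was 7.08-fold higher in 4 of 4 libraries (log2 difference 2.82, SE 0.25, limma adjusted p = 4.31e-05), where 21.5% of all genes were above and 58.1% below Cnih3, and at 1.84 without length correction. Neto proteins accompany kainate receptors, and Neto1 also NMDA receptors. Neto1 was at 3.99, 3.81, 3.01 and 3.85 FPKM, against 11.0, 10.1, 9.58 and 10.5 FPKM for Neto2. Both genes were lowest in replicate 3. Neto1 was 2.78-fold lower in 4 of 4 libraries (-1.47, SE 0.07, limma adjusted p = 1.57e-05), where 61.9% of all genes were below and 30.6% above Neto2, and at -0.92 without length correction.

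**Figure D4:**
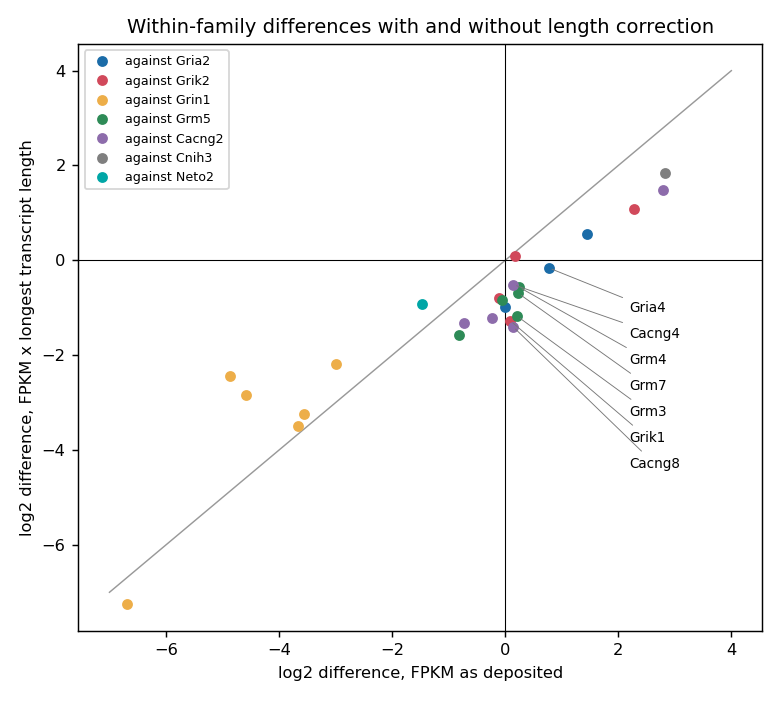
log2 difference of each gene from the named gene of its family, with FPKM as deposited on the x axis and FPKM multiplied by the longest annotated transcript length on the y axis; the diagonal marks equal values. The labelled genes change sign, among them Gria4 (0.77 and -0.16) and Cacng8 (0.14 and -1.40), while Cacng7, Cnih2, Grik5 and Gria1 stay above 0.

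Other genes of glutamate synapses were set against Gria2 to place the receptors beside their partners, with 19.5% of all genes higher and 70.5% lower than Gria2. Of 21 scaffolds and kinases, 8 were higher and 9 lower (median -0.23), led by Nsf, the ATPase that binds Gria2, at 243 ± 18.1 FPKM (SD, n = 4), and by the kinase subunit gene Camk2b at 95.0 ± 9.95 FPKM. Of 13 accessory and assembly genes, 6 were higher and 3 lower (median 0.23), with the secreted noelins Olfm1 at 135.0 ± 12.2 FPKM and Olfm2 at 61.6 ± 7.04 FPKM highest. Of 19 transsynaptic organizers, 6 were higher and 7 lower (median -0.03), with the pentraxin receptor Nptxr at 39.4 ± 8.53 FPKM and the neurexin Nrxn2 at 39.0 ± 3.85 FPKM highest. The median of all genes tested was -1.72. Without length correction 4 scaffolds were higher and 14 lower, 1 accessory gene higher and 11 lower, and 2 organizers higher and 15 lower. The shares over all genes were not taken on that scale, so this shift is not set apart from genes in general. Of 4 NMDA co-agonist genes, 2 were higher and 2 lower on values as deposited (median 0.08). The glycine transporter Slc6a9 at 55.3 ± 1.52 FPKM and the serine transporter Slc7a10 at 28.7 ± 1.41 FPKM were the higher pair.

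Of the 3 RNA editing genes, 2 were higher than Gria2 and 1 lower (median 0.93). Adarb1, which edits the Gria2 codon marked above, was at 23.1, 25.8, 58.9 and 27.1 FPKM in replicates 1 to 4, 1.92-fold higher than Gria2 (log2 difference 0.94, SE 0.30, limma adjusted p = 0.0197). Adar was at 29.6, 31.9, 28.7 and 33.9 FPKM, 1.90-fold higher (0.93, SE 0.13, limma adjusted p = 0.000260). Replicate 3 stood apart for Adarb1 and was lowest for Adar. Adarb1 did not pass without replicate 2, at 1.05, or without empirical Bayes moderation. It passed without replicate 3, the library that stood apart, at a smaller difference of 0.52. Without length correction neither gene passed, Adarb1 at 0.30 and Adar at 0.12. Nptxr at 0.20 and Slc6a9 at 0.19 did not pass on that scale either, and Olfm2 at -0.45 and Slc7a10 at -1.59 passed as lower.

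Between libraries the 33 tested genes had a median SD of log2 levels of 0.20, against 0.17 over all 17630 genes. Over the 13162 genes within the members' range of mean level it was 0.14. Without replicate 3 the median of the 33 genes was 0.14, and the medians over other genes were not recomputed. Grik2 and Grin1 varied least, with SDs of 0.05 and 0.07, and Grin3b most, with 0.78. A library was set against the mean of the other 3, and differences over 1.5-fold were counted. In replicate 3, 4 genes were higher (6.02% of all genes were) and 1 lower (8.19%). In replicate 1, 2 were higher (6.19%) and 1 lower (6.7%). In replicate 2, 1 was higher (6.56%) and 2 lower (5.09%). In replicate 4, none was higher (5.03%) and 1 lower (5.58%). The 12 values past 1.5-fold became 5 without replicate 3, and with so few genes the counts are not set apart from those shares.

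In replicate 3, Cacng5 was 1.77-fold, Grm4 1.69-fold, Grin2c 1.63-fold and Cnih3 1.57-fold higher than the mean of the other libraries on the log2 scale. Highest and lowest values were counted for these genes only, so the counts are not set apart from genes in general. Replicate 4 held the highest value of 12 of the 33 genes and the lowest of 3. The counts were 6 and 10 in replicate 1 and 5 and 6 in replicate 2. In replicate 3 they were 10 and 14, and the same counts over all genes were not taken. All 6 thalamus markers were highest in that library, with Prkcd, a kinase gene of thalamic relay neurons, at 172 FPKM against 3.72 to 13.4 FPKM and none of the 6 at 0 in any library; 3 of 4 oligodendrocyte markers were also highest there, with a sum of 6665 FPKM against 4637 to 6255 FPKM. In replicate 1, Grin3b was 2.31-fold and Grm2 1.79-fold higher, beside Hox and Slc6a5 transcripts, whose 4 markers summed to 16.5 FPKM there and to 0.0745 to 0.361 FPKM elsewhere. In replicate 2, Grik3 was 1.63-fold higher, where all 6 medial hypothalamus markers and all 6 midbrain dopamine markers were highest, the dopamine markers summing to 770 FPKM against 400 to 438 FPKM. In replicate 4, the 6 cortex and hippocampus markers summed to 96.3 FPKM, against 44.9 to 61.2 FPKM elsewhere. Of these markers 3 were highest and 1 was lowest there. The part of these tissue differences in the receptor values was not tested.

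**Figure D5:**
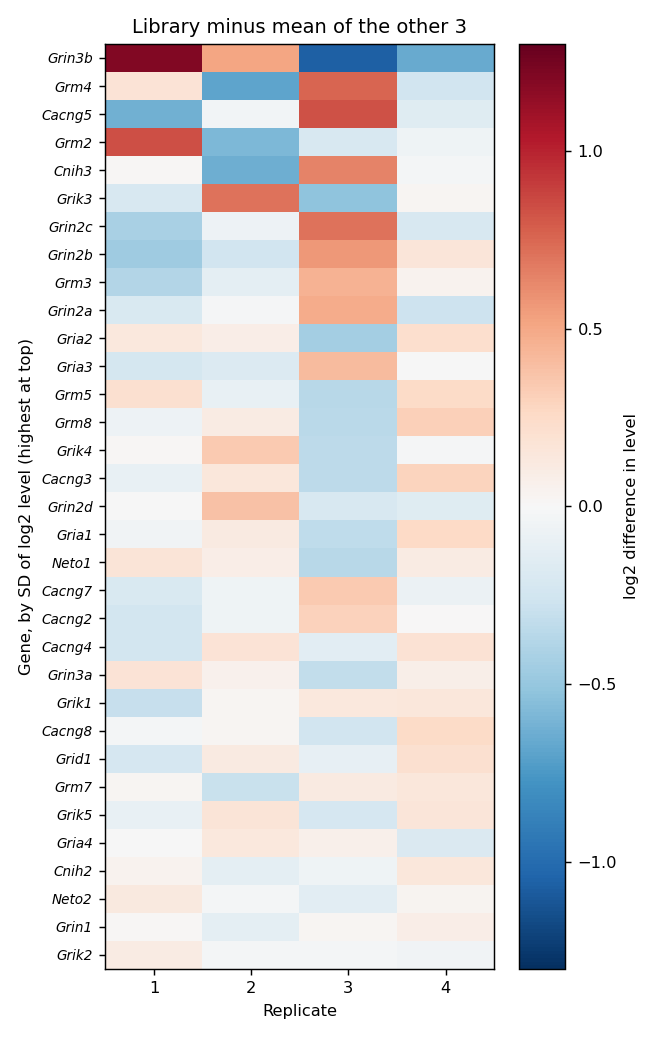
log2 level of each of 33 genes in a library minus the mean of the other 3, by replicate, with red for higher and blue for lower and genes ordered by SD. Cacng5, Grm4, Grin2c and Cnih3 are red in replicate 3 and Grin3b and Grm2 in replicate 1, while Grik2 and Grin1 at the bottom stay near 0.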

How the data were processed

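RNA was extracted with TRIzol and made into libraries with a Hieff NGS mRNA kit, per the labels' protocols. The genome build was GRCm38, per the submitters' processing notes. Neither aligner, counter, annotation nor strand setting is given in the sources used here. The authors deposited a normalized value for each gene and library, taken here to be FPKM: values are not whole and their totals differ. Between 20.4% and 27.6% of values under 0.3 FPKM in genes with a single transcript were whole multiples of a step to within 0.05, which does not recover reads, and no counting intervals were computed. The column of replicate 3 is headed with a letter in place of its number and was assigned by the sample's title.

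Symbols, coordinates and longest transcripts came from GENCODE M21, which matched 22022 of 22036 Ensembl identifiers; 3008 other entries have none. Values were taken as log2(FPKM + 0.1), which understates differences of low genes. Every gene with a mean of at least 0.1 FPKM was compared with the named gene of a family inside the same libraries with limma 3.58.1 (R 4.3.3): an intercept-only model of 4 log2 differences per gene and a two-sided test. P-values were adjusted by Benjamini-Hochberg across 17629 genes, and 0.05 was the threshold. The prior degrees of freedom were limited to the 3.78 of a trended fit of the genes' own levels; the fit was checked on simulated data. Nothing states that libraries come from separate animals, so p-values cover the spread among these samples alone, which may be technical.

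The genes, lists and tests were chosen with earlier results of these data known. All 34 members are named, and of every other synapse list the 2 genes with the highest mean; Hoxb8, Hoxa7, Hoxc6, Slc6a5, Prkcd and Pmch are markers set beside a result. Alternatives were pseudocounts of 1 and 0.01, a filter of 1 FPKM or none, no length correction, other priors, a rescaling to the nuclear total, and leaving out each library; shares and ratios without length correction were added after seeing the data. Sums, shares and figures used pandas 2.3.3, numpy 2.4.6 and matplotlib 3.10.9 under Python 3.11.15.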

Additional observations from a re-analysis of the deposited data

Results flagged for a closer look

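Of 93 levels, shares and sums examined by Dixon's test, 3 had a single library far from the other 3, where chance gives about 5% of groups. That is no more than chance gives, and shares and sums reuse the gene levels, so the items are not independent. For Adarb1 replicate 3 had 58.9 FPKM, while the other libraries spanned 23.1 to 27.1 FPKM. For Grik2 replicate 1 had 4.91 FPKM and the other libraries spanned 4.53 to 4.59 FPKM, a small difference in the gene that varied least. Gria3 took 20.3% of the summed AMPA level in replicate 3 and between 13.6% and 14.7% in the others. All 6 thalamus markers were highest in replicate 3, and their part in the Adarb1 and Gria3 values was not tested.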

How the results depend on the processing

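Single-gene differences kept their direction and their side of the threshold in 354 of 384 alternatives; 16 changed sign. Counting sign changes too, 14 newly passed and 7 no longer passed. Leaving out the length correction alone gave 9 of the sign changes. With the sign kept, 4 differences newly passed and 4 no longer passed in that alternative. Without length correction, among AMPA subunits 1 was higher and 1 lower than Gria2, among kainate subunits 2 were lower than Grik2, among metabotropic receptors 5 were lower than Grm5 and among TARPs 4 were lower than Cacng2. On that scale the other synapse lists gave 4 scaffolds higher and 14 lower than Gria2, 1 accessory gene higher and 11 lower, 2 organizers higher and 15 lower, and 0 editing genes and 0 co-agonist genes higher. Shares over all genes were not taken without length correction, so these counts are not set apart from genes in general. Gria4 turned to -0.16, Olfm2 to -0.45, Slc7a10 to -1.59, Grik1 to -1.27, Grm3 to -1.18, Grm4 to -0.56, Grm7 to -0.70, Cacng4 to -0.51 and Cacng8 to -1.40; that alternative multiplies by transcript length, and which length the authors used is not given in the sources used here. Without moderation 1 editing gene was higher. Leaving out 1 library at a time gave 0 to 1 AMPA subunits lower, 1 to 2 kainate subunits higher, 1 to 3 TARPs higher, 5 to 8 scaffolds higher, 3 to 5 accessory genes lower and 1 to 2 editing genes higher; values past 1.5-fold between libraries numbered 5 to 13, and the median SD was 0.14 to 0.22. Among genes that did not pass, leaving out 1 library moved Gria3 between -0.21 and 0.091, Grik3 between -0.017 and 0.29, Grm2 between -0.22 and 0.058, and Grm4 between -0.039 and 0.39, each across 0. The cause of these changes was not tested. With the filter of 1 FPKM Grin3b was not tested. No paired comparison between groups was possible because there is 1 group, and genes were paired within libraries.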

Other observations

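TARP genes that neighbour each other on a chromosome differed in level to unequal degrees. Cacng7 and Cacng8 lie 22462 bases apart on chromosome 7, and the mean level of Cacng7 was 6.38 times that of Cacng8. Cacng4 and Cacng5 lie 80048 bases apart on chromosome 11, and the mean level of Cacng4 was 1.79 times that of Cacng5. The summed level of AMPA subunits was 1.10 ± 0.0727 times that of NMDA subunits (SD, n = 4) and 2.50 ± 0.142 times that of kainate subunits. Those ratios were 1.25 ± 0.114 and 2.87 ± 0.187 without length correction. The 34 genes summed to 558 ± 16.9 FPKM.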
